A study of Mus musculus with 4 samples.

Results

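The phagocyte NADPH oxidase genes examined here are Cybb, Cyba, Ncf1, Ncf4, Rac1 and Rac2. These 6 of the 21523 genes in the table were chosen by name, as subunits or Rac partners of the oxidase. All 6 were present and passed the filter on low values (a mean of at least 1 FPKM, fragments per kilobase of exon, scaled to library size, over the 4 libraries). The cells were RAW264.7, an established mouse macrophage-like line, grown in DMEM with serum and antibiotics. Both groups are the same line. The control group (2 libraries) is labelled as having no treatment. The other group (2 libraries) was exposed to 1,5-anhydroglucitol (1,5-AG), a polyol related to glucose, at 0.5 mM for 24 h. The culture time of the controls is not stated in the labels, nor is it said that replicates came from different cultures. The p-values therefore reflect the spread among 4 libraries, and that spread may be technical. Being 1 transformed line, the cells stand for no other phagocyte.

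As background, the oxidase moves electrons from cytosolic NADPH across the phagosome membrane to oxygen and so makes superoxide. Its membrane core, cytochrome b558, is a dimer of the catalytic subunit gp91phox (gene Cybb) and p22phox (Cyba). In resting cells the organizer p47phox (Ncf1) and p40phox (Ncf4) stay in the cytosol. Upon stimulation p47phox is phosphorylated and binds p22phox, and a GTP-loaded Rac GTPase joins the complex to turn the enzyme on. Cybc1, the chaperone that cytochrome b558 needs for its maturation, was examined beside the 6 genes.

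Promoter sequence was found in the RefSeq table (GRCm38.p6) for Cybb, Cyba and Ncf1 of the 6 genes. Those of Ncf1, the gene with the largest change among them, and Cybb, the catalytic subunit gene, are shown. A link between these sequences and the expression values was not tested. Each runs 5′ to 3′ on the gene's strand from 250 bases before to 30 bases after the RefSeq start, which for Cybb lies inside the longer GENCODE gene. Capitals mark GGAA, the core bound by ETS factors such as PU.1, on the printed strand or, as TTCC, on the other strand.
Ncf1 (chr5:134229596-134229875, minus strand): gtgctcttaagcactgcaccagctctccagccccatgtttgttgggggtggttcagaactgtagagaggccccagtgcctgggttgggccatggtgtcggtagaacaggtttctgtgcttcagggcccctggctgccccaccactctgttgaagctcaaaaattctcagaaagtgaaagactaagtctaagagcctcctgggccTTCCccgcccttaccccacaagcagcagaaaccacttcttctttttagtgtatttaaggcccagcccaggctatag
Cybb (chrX:9469295-9469574, minus strand): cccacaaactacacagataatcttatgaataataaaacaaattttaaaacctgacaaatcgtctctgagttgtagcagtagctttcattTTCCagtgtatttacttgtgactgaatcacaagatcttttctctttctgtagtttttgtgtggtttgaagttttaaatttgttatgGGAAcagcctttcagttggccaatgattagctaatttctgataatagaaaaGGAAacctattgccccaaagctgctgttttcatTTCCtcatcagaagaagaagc
The Ncf1 window held 1 GGAA match, the Cybb window 4 and the Cyba window, not printed, 2. The longer string GAGGAA, searched on both strands and containing GGAA, had 1 match in the Cybb window, starting 10 bases after the start on the opposite strand. The Ncf1 and Cyba windows held 0 matches of GAGGAA. Of 32851 RefSeq windows of this length, 95.1% held GGAA and 26% held GAGGAA. A match describes letters in the sequence and not binding.

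The libraries held 14605854 to 16216566 fragments assigned to genes, counts recovered from the deposited FPKM and annotated exon lengths. Genes listed at 0 numbered 2979 to 3621 per library. The macrophage genes Cd68 (499 ± 1.20 FPKM in control, 475 ± 5.08 with 1,5-AG; SD, n = 2 per group here and below) and Csf1r (258 ± 0.237 and 239 ± 2.29) were abundant. The summed level of 6 macrophage markers was 5231 to 5361 FPKM in the control libraries and 3768 to 3854 FPKM with 1,5-AG, 1 of the 6 (Lyz2, lysozyme) passing the test and lower. Lyz2 made up most of that sum, and the other 5 markers together had 807 to 809 FPKM in control and 758 to 767 FPKM with 1,5-AG. With voom, a fit on the recovered fragments given below, Csf1r (adjusted p = 0.0215) and Adgre1 (0.00598) were lower as well. Cd68, Itgam and Fcgr1 were not called by voom, which called 4.64% of genes lower. Neutrophils also carry the oxidase. Of 10 neutrophil markers 3 were measured, with summed levels of 0.660 to 0.761 FPKM in control and 0.394 to 0.441 FPKM with 1,5-AG. Each of these 3 (S100a8, Elane and Camp) had 0 to 4 fragments per library, around the floor of 3, so no difference can be read from the sums. The labels name only the RAW264.7 line and no neutrophils, and the presence of other cells was not tested beyond marker levels. Fewer cells of a type and less RNA per cell cannot be told apart in these bulk samples.

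Not all 6 oxidase genes passed the test, which by itself does not show that the members differ in their response. Of the 6 members, Ncf1 rose with 1,5-AG by limma's test (adjusted p under 0.05 over all 11118 tested genes), 0 fell, and the other 5 did not pass. Over all tested genes 1.46% were called, 0.809% higher and 0.648% lower. The log2 fold changes of the 6 members ran from -0.08 to 0.41 with a median of -0.00, the same as the median of all tested genes (-0.00). Each fold change is on the log2(FPKM + 1) scale, positive where the treated libraries were higher.

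**Figure D1:**
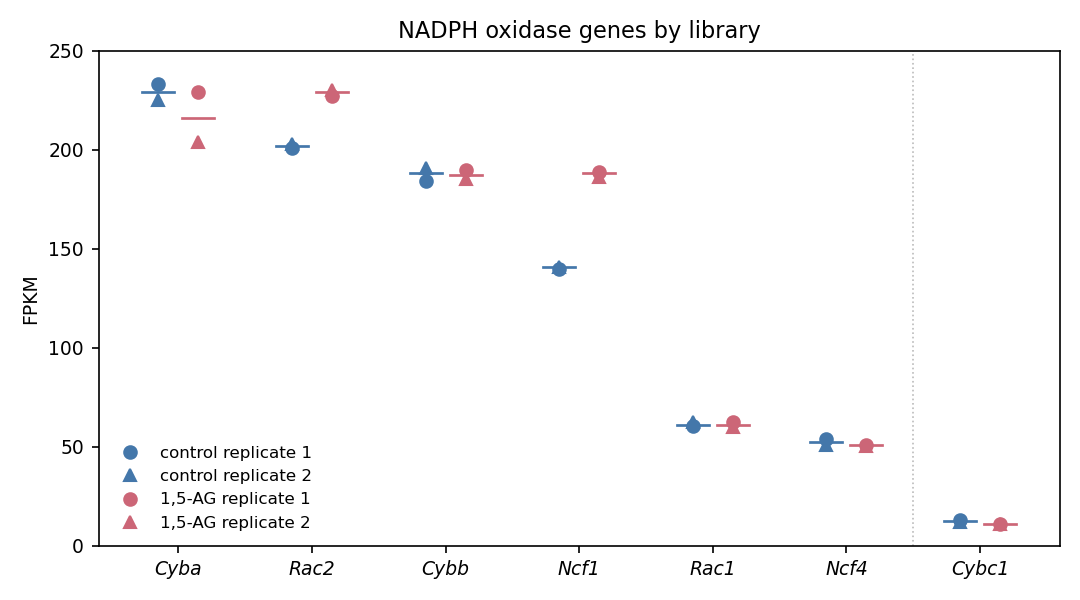
FPKM of the oxidase genes in each of the 4 libraries (points) with group means (bars); the 6 members stand left of the dotted line, Cybc1 right of it. Ncf1 goes from 140 and 141 FPKM to 189 and 186, and Rac2 from 201 and 203 to 227 and 230, while the points of Cybb, Cyba, Rac1 and Ncf4 overlap between groups.

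In the membrane core, neither gene passed the test. Cybb (chromosome X, 9435252 to 9487771, mm10) had 184 and 191 FPKM in the control libraries and 190 and 185 FPKM with 1,5-AG. The groups overlapped, and the log2 fold change was -0.00 (SE 0.04, 95% interval -0.10 to 0.09, adjusted p = 0.988 by limma). Cybb had 16129 to 17986 fragments per library, more than any other member. Cyba, whose product anchors p47phox at the membrane, lies on chromosome 8 (122424776 to 122432930). It had 233 and 225 FPKM in control and 229 and 204 FPKM with 1,5-AG, the second 1,5-AG library lying below the other 3. Its log2 fold change was -0.08 (SE 0.06, interval -0.24 to 0.08, adjusted p = 0.551 by limma), and without 1,5-AG replicate 2 it was -0.00. The gap between the 1,5-AG libraries of Cyba exceeded counting error, with 95% Poisson intervals of 221 to 236 and of 197 to 211 FPKM. Such intervals take in counting error alone, since without molecular identifiers several fragments can stem from 1 molecule.

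Of the cytosolic subunit genes, Ncf1 passed the test and Ncf4 did not. Ncf1, which encodes the organizer p47phox (chromosome 5, 134220053 to 134229625, minus strand), had 140 and 141 FPKM in control and 189 and 186 FPKM with 1,5-AG. Both 1,5-AG libraries lay far above both controls, a rise of 33.5% in mean FPKM. The log2 fold change was 0.41 (SE 0.03, 95% interval 0.33 to 0.50, adjusted p = 0.0207 by limma). By fragments, Ncf1 went from 7753 and 8408 to 10117 and 10312, and the counting intervals of the groups (136 to 144 FPKM in control, 183 to 193 with 1,5-AG) stayed apart. The call was lost when any 1 library was left out: the log2 fold change was then 0.40 to 0.42 and the adjusted p 0.0921 to 0.110. It was also lost without the filter on low values (adjusted p = 0.0885) and without the variance trend (0.0951). In fold change Ncf1 stood 72nd among the 90 genes called higher.

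Ncf4, the gene of p40phox, which binds phosphoinositides of the phagosome, lies on chromosome 15 (78244801 to 78262580). It had 53.8 and 50.6 FPKM in control and 50.8 and 50.4 FPKM with 1,5-AG. The groups overlapped (log2 fold change -0.04, SE 0.05, interval -0.16 to 0.07, adjusted p = 0.672 by limma). Cybc1 lay lower in both 1,5-AG libraries, with 13.1 and 12.1 FPKM in control and 10.9 and 11.1 FPKM after treatment. It did not pass (-0.18, SE 0.06, adjusted p = 0.204 by limma).

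Neither Rac gene passed the test. Rac1 and Rac2 encode small GTPases that switch the assembled oxidase on. Rac2 is largely restricted to blood cells, whereas Rac1 is found in nearly all cells. Rac2 (chromosome 15, 78559167 to 78572783) had 201 and 203 FPKM in control and 227 and 230 FPKM with 1,5-AG. The groups were separate, with 13.3% more mean FPKM after treatment and a log2 fold change of 0.18 (SE 0.03, interval 0.10 to 0.26, adjusted p = 0.0827 by limma), short of the threshold. Rac1 (chromosome 5, 143503634 to 143528036) had 60.2 and 62.3 FPKM in control and 62.4 and 60.1 FPKM with 1,5-AG. Its group means were equal (61.2 and 61.2 FPKM, log2 fold change 0.00, SE 0.04, interval -0.11 to 0.11, adjusted p = 1 by limma). The 2 are close paralogs, and the sources used here do not give how reads matching both were counted.

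With voom on the recovered fragments, which weighs each gene by its counts, Ncf1 (adjusted p = 1.18e-07 by voom) and Rac2 (0.18, adjusted p = 0.00184 by voom) were both higher and 0 members were lower. Voom called 8.29% of 11056 genes, 3.65% higher and 4.64% lower. The limma fit called Rac2 as well with a mean of at least 5 FPKM (adjusted p = 0.0481, 4.8% of genes called), among protein coding genes only (0.0337, 4.36% called) and with the replicate number as a block (0.0458, 2.81% called). Rac2 thus depends on the setting, although its fold change of 0.15 to 0.19 kept its sign in all 15 alternatives.

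**Figure D2:**
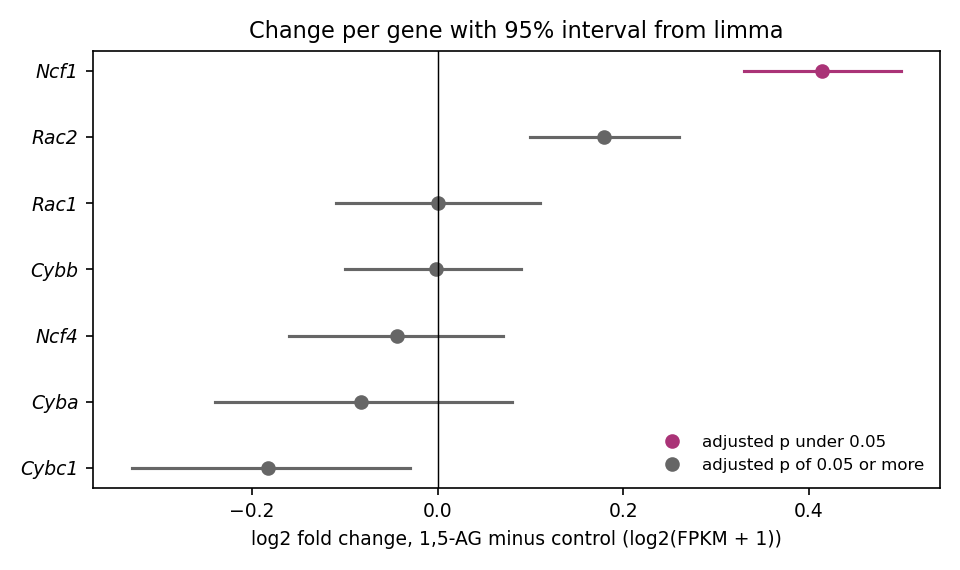
Log2 fold change of each oxidase gene, 1,5-AG minus control, with its 95% interval from limma; colour shows whether the adjusted p was under 0.05. The values run from -0.18 for Cybc1 to 0.41 for Ncf1, and Ncf1 is the single gene coloured as past the threshold.

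The groups did not overlap for 2 of the 6 members, Ncf1 and Rac2, both higher. Over all tested genes the groups were separate for 49.6%, 24.2% higher and 25.4% lower, so this share of members is near the background. Under quantile normalization all 6 members had separate groups, 2 higher and 4 lower, with 48.7% of all tested genes separate. The summed level of the 6 members was 872 and 873 FPKM in control and 948 and 916 FPKM with 1,5-AG. As deposited, the FPKM values of the other 4 members overlapped between groups. Their limma intervals reach at most 0.24 in either direction on the log2 scale, which does not show that they were unchanged.

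FPKM divides by the annotated exon length of a gene, which may differ from the length of the transcripts expressed. The order of the genes by level therefore depends on the annotation. In the control libraries the mean FPKM fell in the order Cyba (229 ± 5.99), Rac2 (202 ± 1.43), Cybb (188 ± 4.49), Ncf1 (141 ± 1.32), Rac1 (61.2 ± 1.47), Ncf4 (52.2 ± 2.26) and Cybc1 (12.6 ± 0.733). No neighbours in this order overlapped between the control libraries. With 1,5-AG the order was Rac2 (229 ± 2.42), Cyba (216 ± 17.5), Ncf1 (188 ± 1.90), Cybb (187 ± 3.64), Rac1 (61.2 ± 1.60), Ncf4 (50.6 ± 0.324) and Cybc1 (11.0 ± 0.159). Here the libraries of Rac2 and Cyba overlapped, as did those of Ncf1 and Cybb.

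The level of each member relative to Cybb in the same library does not depend on how libraries are scaled. Ncf1 had 0.757 and 0.741 of the Cybb level in control and 0.995 and 1.01 with 1,5-AG. By annotated exon length, the FPKM of Ncf1 was thus about that of Cybb with 1,5-AG. Rac2 went from 1.09 and 1.06 times the Cybb level to 1.20 and 1.25 times. Rac1 stayed between 0.325 and 0.328 of Cybb in all 4 libraries. For Cyba the ratio was 1.26 and 1.18 in control and 1.20 and 1.10 with 1,5-AG, and for Ncf4 0.292 and 0.265 against 0.268 and 0.273, the groups overlapping in both. The change of the log2 ratio was 0.42 for Ncf1, 0.18 for Rac2, 0.00 for Rac1, -0.04 for Ncf4 and -0.08 for Cyba. In the exact two-sided permutation test Ncf1 and Rac2 had p = 0.333, the smallest value 2 against 2 libraries allow (0.833 adjusted over the 5 ratios), so these differences between members are not established by that test.

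**Figure D3:**
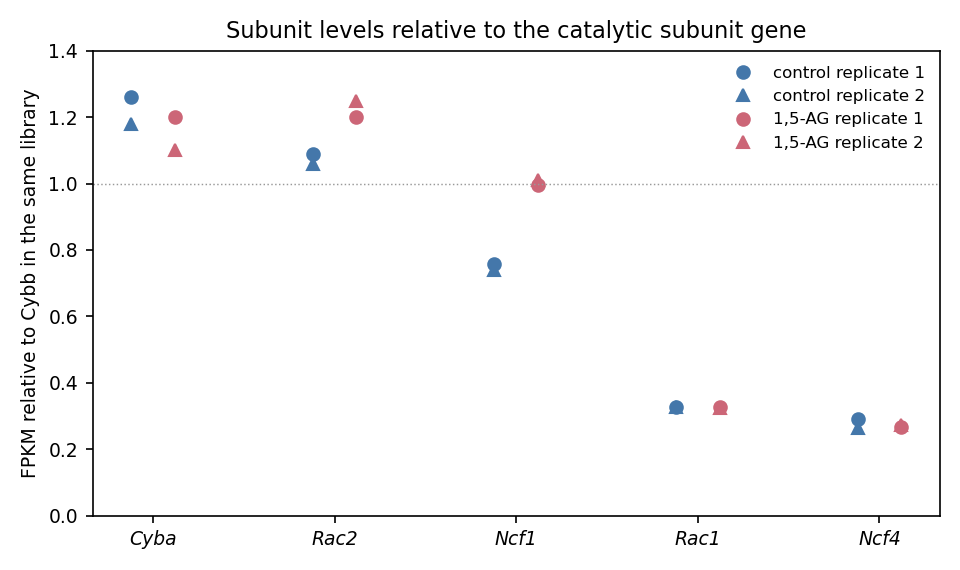
FPKM of 5 members divided by that of Cybb in the same library; the dotted line marks equality with Cybb. Ncf1 moves from 0.757 and 0.741 in control to 0.995 and 1.01 with 1,5-AG, Rac2 moves up, and Cyba, Rac1 and Ncf4 overlap between groups.

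Ncf1 and Rac1 share exons with genes on the opposite strand, and the sources used here do not give the strand setting of the counting. Ncf1 overlaps Gtf2ird2, a transcription factor gene, over 408 of its 3663 exon bases. Gtf2ird2 had 3.38 and 3.71 FPKM in control and 3.70 and 3.83 FPKM with 1,5-AG (log2 fold change 0.07, adjusted p = 0.700 by limma), far below Ncf1. The nearest tested coding genes beside Ncf1 did not pass either: Rcc1l had a log2 fold change of 0.22 (adjusted p = 0.120 by limma) and Gtf2i 0.09 (adjusted p = 0.360 by limma). Rac1 overlaps Daglb over 2309 of its 4496 exon bases, and Daglb had 6.74 ± 0.209 FPKM in control and 6.12 ± 0.0799 with 1,5-AG. Where reads of overlapping genes were assigned cannot be told apart from these values. These neighbours were chosen after the values of the members were seen.

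Genes around the oxidase were examined in 8 lists of factors that build, switch on, supply or oppose it. Of 98 tested genes 4 were higher and 2 lower, 6.12% against 1.46% of all tested genes. The lists were more highly expressed than most, with a median level of 30.4 FPKM against 8.89 FPKM over all tested genes, and were drawn up with earlier results of these data known. Their median log2 fold change was -0.04. The counts per list below stand beside the shares over all tested genes. These were 0.809% higher and 0.648% lower by limma, and 3.65% higher and 4.64% lower by voom. With any 1 library left out, 0 to 1 of the 98 genes passed, and 0 without the filter on low values or without the variance trend.

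**Figure D4:**
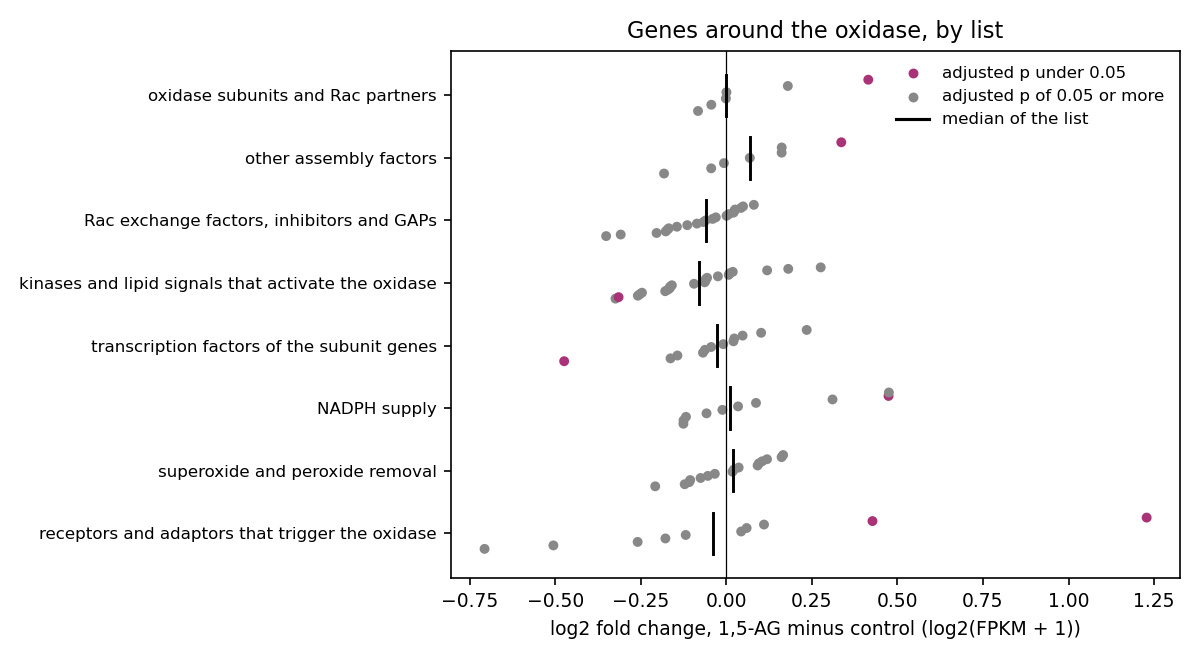
Log2 fold change, 1,5-AG minus control, of each tested gene in the oxidase lists (points), with the median of each list (black bar). The points past the threshold are Ncf1, Rap1b, Pak1, Runx1, Idh1, Itgb2 and C5ar1; C5ar1 lies farthest right at 1.23.

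Of 7 tested assembly factors, Cybc1 among them, 1 rose and 0 fell by limma, and 3 were higher and 0 lower by voom. Rap1b, a Ras-like GTPase whose relative Rap1a copurifies with cytochrome b558, had 84.7 and 86.3 FPKM in control and 110 and 106 FPKM with 1,5-AG (log2 fold change 0.34, SE 0.04, adjusted p = 0.0351 by limma). Both treated libraries were above both controls. Rap1a itself had 71.7 ± 2.68 and 80.3 ± 0.44 FPKM and did not pass (0.16, adjusted p = 0.145 by limma), though it did with voom (adjusted p = 0.0315). The chaperone calnexin, gene Canx (0.07), and the membrane linker moesin, gene Msn (-0.04), did not pass. The voltage-gated proton channel gene Hvcn1, which offsets the charge that the oxidase moves, was near the floor, with 4 and 5 fragments in the controls and 1 in each treated library. Of the other NADPH oxidases, Nox1 (11 and 6 fragments in the controls, 0 and 5 in the treated libraries) and its organizer Noxo1 (10 and 9, then 10 and 12) were measured and fell below the filter.

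The list of receptors and adaptors that trigger the oxidase held the largest change. It also holds Fcgr2b, the gene of an inhibitory Fc receptor (2.55 ± 0.0211 FPKM in control, 1.97 ± 0.145 with 1,5-AG). Of 10 tested, 2 rose and 0 fell by limma, and 2 were higher and 2 lower by voom. C5ar1, the receptor of the complement fragment C5a, had 12.6 and 10.7 FPKM in control and 28.6 and 28.5 FPKM with 1,5-AG (1.23, SE 0.08, adjusted p = 0.0168 by limma). Itgb2, the shared beta chain of the leukocyte integrins, had 76.2 and 80.8 FPKM against 106 and 106 FPKM (0.43, SE 0.04, adjusted p = 0.0274 by limma). Its partner chain in the complement receptor Mac-1, Itgam, had 7.27 ± 0.566 and 7.51 ± 0.00267 FPKM and did not pass (0.04, adjusted p = 0.793 by limma). The signalling adaptor genes Tyrobp (-0.18) and Fcer1g (-0.12), the most abundant of this list, did not pass. Tyrobp was called lower under the same 4 settings as Rac2: a mean of at least 5 FPKM (adjusted p = 0.0481 by limma), protein coding genes only (0.0321), the replicate block (0.0373) and voom (0.00962). The Fc receptor gene Fcgr3 had a larger change than Itgb2, in the other direction, with 6.95 ± 0.367 FPKM in control and 3.88 ± 0.585 with 1,5-AG. It fell short of the threshold by limma (-0.71, SE 0.10, adjusted p = 0.052) and was called lower by voom (adjusted p = 0.0017). Of the 10 genes, 5 (Fcgr2b among them) were lower in both 1,5-AG libraries than in both controls and 2 were higher. Over all tested genes these shares were 25.4% and 24.2%.

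Kinases and lipid signals that phosphorylate or recruit the cytosolic subunits had 0 of 22 tested members higher and 1 lower by limma, and 1 higher and 8 lower by voom. Pak1, a Rac-activated kinase that can phosphorylate p47phox, fell from 37.4 and 37.5 FPKM to 29.4 and 30.5 FPKM (log2 fold change -0.32, SE 0.04, adjusted p = 0.0456 by limma). In this list 13 genes were lower and 2 higher with separate groups, against 25.4% and 24.2% of all tested genes, and the median log2 fold change was -0.08. The kinase genes Akt1 (0.01) and Mapk3 (-0.25) were the most abundant and did not pass. Mapk3 was called lower with voom (adjusted p = 0.00544) and by limma among protein coding genes only (0.0335).

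Regulators of Rac had 0 of 21 tested members called by limma (5 at an unadjusted p under 0.05). Voom called 4 lower but did not test Abr, whose recovered fragments were not whole in all libraries. Abr (-0.20, adjusted p = 0.0906 by limma) was among the 5. The regulators are exchange factors, which load Rac with GTP, GTPase-activating proteins and inhibitors. Their median log2 fold change was -0.06, and 12 were lower and 1 higher with separate groups, where 25.4% and 24.2% of all tested genes were. Arhgdia (0.03) and Arhgdib (0.02), the inhibitors that hold Rac in the cytosol, were the most abundant, and neither passed.

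The listed transcription factors of the subunit genes had 0 of 12 tested members higher and 1 lower by limma, and 1 higher and 1 lower by voom. Runx1, a factor of blood cell development, fell from 6.67 and 6.82 FPKM to 4.46 and 4.69 FPKM (log2 fold change -0.47, SE 0.06, adjusted p = 0.0440 by limma). Spi1, the gene of PU.1, had 120 and 103 FPKM in control and 104 and 95.5 FPKM with 1,5-AG, and the groups overlapped (-0.16, adjusted p = 0.394 by limma). Rela, a subunit of NF-kB, did not pass (-0.14, adjusted p = 0.294 by limma).

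Of 10 tested genes listed under NADPH supply, 1 rose and 0 fell by limma, and 3 were higher and 1 lower by voom. The list was not limited to enzymes of the cytosol, where the oxidase takes its NADPH. Idh1, the cytosolic isocitrate dehydrogenase, had 117 and 123 FPKM in control and 169 and 165 FPKM with 1,5-AG (0.47, SE 0.04, adjusted p = 0.0207 by limma). Pgd, an enzyme of the pentose phosphate pathway, had 117 ± 1.47 and 107 ± 1.19 FPKM and did not pass (-0.13, adjusted p = 0.164 by limma; 0.0246 with voom). Among 16 tested genes listed as removing or otherwise limiting superoxide and peroxide limma called 0 (4 at an unadjusted p under 0.05, 1 lower by voom). Of these, 7 were higher and 7 lower with separate groups (24.2% and 25.4% of all tested genes), and the median log2 fold change was 0.02. The most abundant, the thioredoxin gene Txn1 (0.02) and the peroxiredoxin gene Prdx1 (-0.11), did not pass.

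The genes with the most similar values over the 4 libraries were sought among 4713 other coding genes with a mean of at least 10 FPKM, by the distance between log2(FPKM + 1) values centred on each gene's mean. For Ncf1 these were Adam10, a membrane-bound sheddase (53.0 ± 1.27 to 71.0 ± 0.931 FPKM, distance 0.021), and Ctsd, the lysosomal protease cathepsin D (155 ± 0.954 to 210 ± 2.25 FPKM, distance 0.043). For Rac2 they were the Golgi GTPase gene Arl1 (0.006) and the mitochondrial malic enzyme gene Me2 (0.014). Rac1 was closest to Gxylt1 (0.007) and then to Cybb (0.009), a fellow member. Cybb was closest to Hnrnpk and Msl3 (0.006 each), Cyba to Ap1m1 (0.005) and Prune1 (0.016), and Ncf4 to Sgpp1 and Myo7a (0.010 each). Cybc1 was closest to Plcb2 (0.012) and Def6 (0.016). With 4 libraries such likeness is a description only.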

How the data were processed

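RNA from RAW264.7 cells was made into libraries with a stranded mRNA kit, per the labels' protocols. The deposited values are FPKM, 1 column per library. Per the submitters' processing notes, the authors used Trimmomatic, HISAT2, Cufflinks and HTSeq with build mm10; their versions and settings were not given in the sources used here. Among 21523 identifiers, 21508 matched GENCODE M21 on the same build, and the other 15 were left out. FPKM times merged exon length gave whole fragments in all libraries (tolerance 0.02) for 99.4% of genes.

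Groups came from sample titles. limma 3.58.1 in R 4.3.3 was run on log2(FPKM + 1) for 11118 genes with a mean of at least 1 FPKM, fitting the group alone, with a mean-variance trend (2 residual and 3.06 prior degrees of freedom). Of rows sharing a symbol, the highest was kept. Tests were two-sided, with Benjamini-Hochberg adjustment over all tested genes and a threshold of 0.05. The script was tested on simulated data. The alternatives are given in the closing section.

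Members and lists were chosen with earlier results of these data known. The text names all members, each listed gene past the threshold, the 2 most abundant of each list and the 2 genes most like each member. It also names the identity markers Lyz2, Cd68, Csf1r and Adgre1. Adgre1 (log2 fold change -0.32) was not called by limma and was lower with voom (adjusted p = 0.00598). Rap1a, Itgam, Fcgr3, Fcgr2b, Abr, Hvcn1, Nox1 and Noxo1 were named after their values were seen. Some related genes are not reported here. Other marker lists (eosinophil and mast cell, T and NK cell, fibroblast, epithelium) summed to at most 1.37 FPKM in each library. B cell markers summed to 38.1 to 53.8 FPKM, mostly Ighm. For 2 kb of exon, the floor of 3 fragments was 0.0924 to 0.103 FPKM.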

Additional observations from a re-analysis of the deposited data

How the results depend on the processing

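All alternatives were planned except those for the other pathway genes, chosen after seeing the data. The number of genes called, 162 of all tested, 1 member and 6 other pathway genes, was 0, 0 and 0 without a filter on low values (limma, with 2627, 2 and 38 at an unadjusted p under 0.05). It was 360, 2 and 12 at a mean of at least 5 FPKM, 5, 0 and 0 without the variance trend, 412, 2 and 16 among protein coding genes only (163 of the 412 higher, 249 lower) and 917, 2 and 27 with voom (404 of the 917 higher, 513 lower). The replicate block gave 312 genes and 2 members. The labels do not say whether same-numbered libraries were paired. Their deviations correlated at 0.0122 across genes, which does not decide it. With 1 library left out the counts were 2 to 10, 0 and 0 to 1, a lone sample being assumed to vary like the other group. Without the variance trend all 5 calls were higher. Members with separate groups, 2, numbered 6 under quantile normalization (48.7% of all tested genes separate) and 3 to 5 with 1 library left out. Groups separate more readily with fewer libraries, and the share over all tested genes is not given for that setting. The 3 to 5 are therefore not to be read as more members becoming separate.

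Of 614 refits of 41 named genes, 515 kept their sign and side of the threshold, 59 lost the call, 16 gained it and 24 changed sign, each of these uncalled. Under quantile normalization the latter were Akt1 (-0.04), Arhgdib (-0.03), Hnrnpk (-0.06), Rac1 (-0.05) and Txn1 (-0.01), under median-ratio scaling Cybb (0.00) and Msl3 (0.00), and under voom Rac1 (-0.00). With 1 library left out the lowest and highest values were -0.03 and 0.02 for Cybb, -0.03 and 0.03 for Rac1, -0.02 and 0.03 for Akt1, -0.03 and 0.08 for Arhgdia, -0.01 and 0.06 for Arhgdib, -0.03 and 0.03 for Gxylt1 and for Hnrnpk, -0.02 and 0.02 for Msl3, and -0.17 and 0.02 for Prune1. The log2 ratio to Cybb changed sign with 1 library left out for Ncf4 (-0.11 to 0.03) and Rac1 (-0.01 to 0.01). Why the counts differ was not tested, though some settings leave fewer genes or libraries. Genes under about 3 fragments per library are not measurable at this depth.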
